A study of Ursus arctos with 12 samples.

Results

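The 8 genes described here are the FOXO transcription factors FOXO1, FOXO3 and FOXO4 and 5 ubiquitin ligases of striated muscle, FBXO32, TRIM54, TRIM55, TRIM63 and MUL1. They were taken by symbol from the count table, which lists 30249 genes, and 8 of 8 were among the 17290 genes tested. The libraries came from the vastus lateralis, a thigh muscle, of 6 free-ranging brown bears (Ursus arctos) aged 2 to 3 years by the labels. Each bear was biopsied in winter during hibernation and again in summer during its active period, which gave 12 poly-A libraries, 6 per season. No group carried a treatment or an engineered allele, and season, fasting, inactivity and body temperature cannot be told apart in this design. The question put to these genes was whether a muscle that is idle for months changes the transcripts of its atrophy program.

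FOXO factors are forkhead proteins that insulin and growth factor signaling holds out of the nucleus through phosphorylation by AKT. When that signal falls, they enter the nucleus and switch on genes of protein breakdown and autophagy. FBXO32, also called atrogin-1 or MAFbx, and TRIM63, also called MuRF1, are the ligases best known for rising in wasting muscle of rodents, and both are FOXO targets. TRIM55 (MuRF2) and TRIM54 (MuRF3) are close relatives of TRIM63 that bind the sarcomere and microtubules. MUL1 is a ligase of the outer mitochondrial membrane that acts on mitofusin.

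Depth ran from 16742406 to 32140160 reads counted on genes per library. Levels are given as CPM, reads of a gene relative to the library total after edgeR's TMM scaling, or as log2 CPM with a prior count of 2. Calls came from edgeR's quasi-likelihood test across all genes with Benjamini-Hochberg adjustment, and a gene was called at an adjusted p below 0.05. On the second principal component of all genes, which held 14.6% of the variance, bear 1509 in winter was far out at 98.6, with the remaining 11 libraries between −29.4 and 8.16. Without that library the log2 fold changes of FBXO32, FOXO4 and MUL1, given in full below, were 0.13, 0.05 and −0.23, and none of the 3 was called. Of 12 markers of muscle fibers, 12 were detected, of which 2 were higher and 4 lower in winter, and their summed level ran from 131158 to 234063 CPM in summer and from 145264 to 188111 CPM in winter. Of 8 fibroblast markers 6 were lower in winter, with a summed level of 4238 to 11363 CPM in summer and 276 to 1677 CPM in winter, of 9 macrophage markers 6 were lower, and of 8 endothelial markers 5 were lower and 2 higher. Lower in winter were also 4 of 9 fast fiber markers, 4 of 6 satellite cell markers and 3 of 8 adipocyte markers, while 1 adipocyte marker was higher. The part of these shifts in the results below was not tested, and in a biopsy fewer cells of a type and less RNA per cell cannot be told apart.

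FOXO3 and TRIM54 rose in winter and TRIM55 fell, each by less than 2-fold, whereas FOXO1, FOXO4, FBXO32, TRIM63 and MUL1 did not pass the test. Calls thus fell on 3 of the 8, with 2 higher and 1 lower in winter, where the share called over all genes tested was 39.5%, made up of 19.6% higher and 19.9% lower. A stricter rule asked for an adjusted p below 0.01 together with a winter level over 1.3 or under 0.77 times that of summer. FOXO3, TRIM54 and TRIM55 passed it too, beside 24.0% of all genes. The 2 seasons did not overlap for the same 3 genes, beside 17.3% of all genes (9.12% higher and 8.21% lower), and 4 of the 8 moved in the same direction in 6 of 6 bears, beside 37.4% of all genes. The called genes are thus about as frequent among the 8 as in the whole table. Their median absolute log2 fold change was 0.74, beside 0.87 for all called genes.

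**Figure D1:**
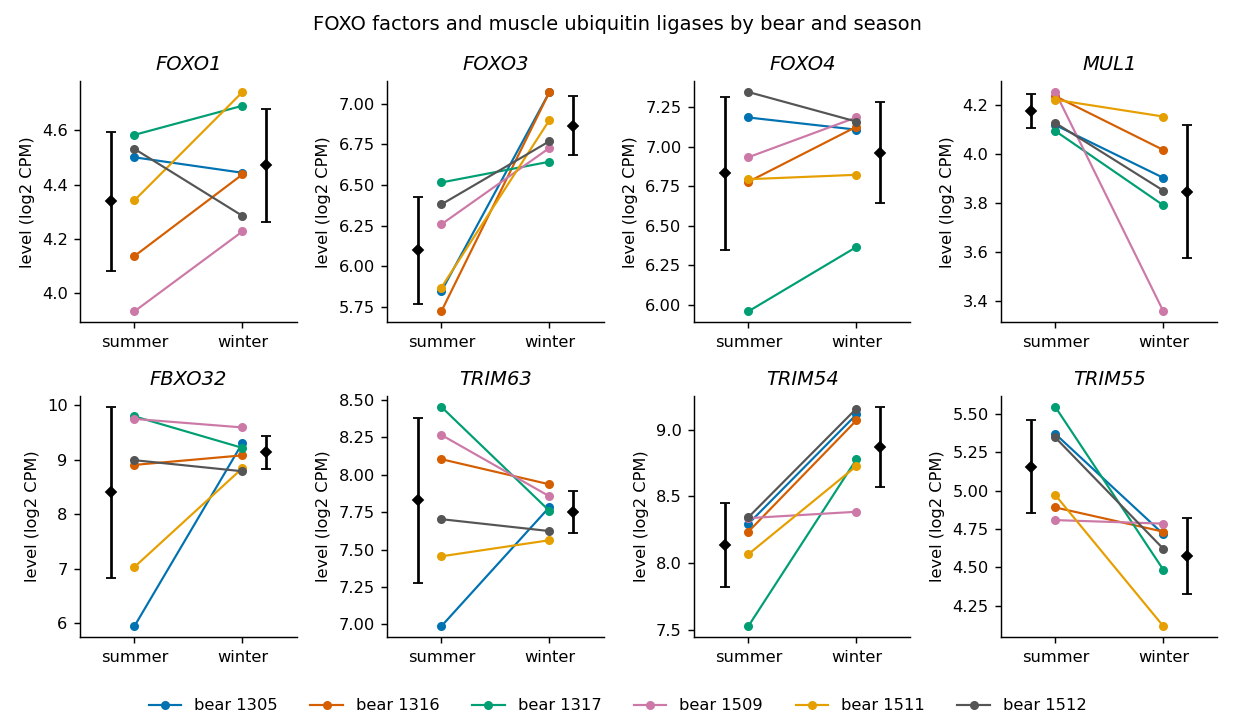
Level of each gene in log2 CPM (vertical axes, each with its own range) in summer and winter, with 1 colored line per bear and black diamonds for the season mean ± SD (n = 6 bears). The lines of FOXO3 and TRIM54 run upward in 6 of 6 bears and those of TRIM55 and MUL1 downward in 6 of 6, while the summer points of FBXO32 span 5.95 to 9.80 log2 CPM.

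Among the transcription factors, FOXO3 was the one that rose. In summer its lowest, median and highest levels were 52.7, 67.4 and 91.4 CPM, and in winter they were 99.8, 114 and 134 CPM. Every winter library therefore lay above every summer library. Winter exceeded summer by 0.75 on the log2 scale (SE, the standard error, 0.15, adjusted p = 0.00122 in edgeR), or 1.68-fold, from 6.10 ± 0.33 to 6.86 ± 0.18 log2 CPM (SD, n = 6 bears). Single bears differed in the size of the rise. It was 1.35 on the log2 scale in bear 1316, 1.23 in bear 1305 and 1.03 in bear 1511, which had the 3 lowest summer levels. In bears 1509, 1512 and 1317, which started higher, it was 0.47, 0.39 and 0.13. The summer level is part of each difference, so a larger rise from a lower start does not by itself show a stronger response. The winter levels of the 6 bears lay closer together than their summer levels, with standard deviations of 0.18 and 0.33.

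FOXO1, the factor most often tied to insulin control of metabolism, stood at 15.2, 21.4 and 23.9 CPM in summer and at 18.7, 21.6 and 26.7 CPM in winter, as lowest, median and highest. The seasons overlapped over most of their range. Its log2 fold change was 0.13 (SE 0.13, adjusted p = 0.474), higher in 4 of 6 bears.

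FOXO4 had lowest, median and highest levels of 62.1, 116 and 162 CPM in summer and 82.3, 139 and 145 CPM in winter. Its log2 fold change was 0.09 (SE 0.20, adjusted p = 0.733), also higher in 4 of 6 bears. Bear 1317 had the lowest level in both seasons, 62.1 and 82.3 CPM, while the other libraries lay from 110 to 162 CPM. For each of these genes the difference between seasons was smaller than the spread between bears.

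The remaining FOXO gene of mammals, FOXO6, is not one of the 8 and was looked up after its counts had been seen. It had 33 to 267 reads per library. It stood at 6.70 to 11.7 CPM in summer and at 1.39 to 2.82 CPM in winter, or −1.96 in log2 fold change (SE 0.22, adjusted p = 2.66e-05), lower in 6 of 6 bears. Of the 4 FOXO genes, then, 1 rose, 1 fell and 2 were not called.

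**Figure D2:**
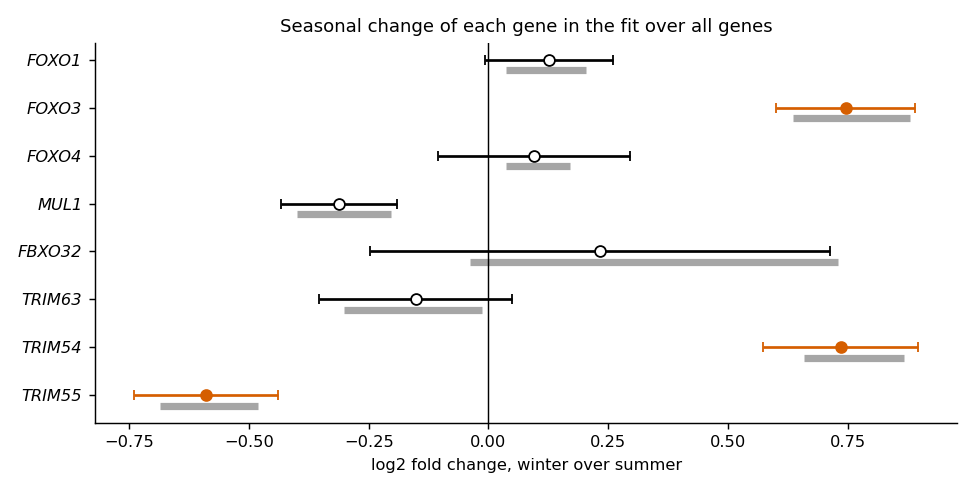
Log2 fold change of winter over summer (horizontal axis) for each gene, with bars of ± 1 standard error, filled points for genes called at an adjusted p below 0.05 and open points for the others. Gray bars span the values under the 15 other fits, and that of FBXO32, from −0.04 to 0.73, is the widest and the only one to cross 0.

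To ask whether FOXO3 moved apart from its relatives, the ratio of its reads to those of another gene was taken within each library, a measure that needs no scaling between libraries. The FOXO3/FOXO1 ratio was higher in winter in 6 of 6 bears, by 0.63 ± 0.49 on the log2 scale (SD, n = 6 bears), with an exact sign-flip permutation test giving p = 0.0312 (two-sided) and 0.0729 after adjustment over the 7 ratios compared. The FOXO3/FOXO4 ratio was higher in 5 of 6 bears, by 0.64 ± 0.59 (exact p = 0.0938, adjusted 0.131, n = 6 bears). The FOXO1/FOXO4 ratio moved by 0.00 ± 0.22, upward in 3 bears and downward in 3 (exact p = 0.906, n = 6 bears). With 6 bears the smallest p of this test is 0.0312. A ratio at that limit passes the adjustment over 7 ratios only if most of the others reach it too. None of the 7 ratios passed after adjustment, the lowest adjusted p being 0.0729, and a different seasonal response of FOXO3 was not established.

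The MuRF genes went in different directions. TRIM54 rose from 185, 308 and 325 CPM in summer (lowest, median and highest) to 334, 488 and 571 CPM in winter. The seasons did not overlap, although the winter library of bear 1509, at 334 CPM, lay only just above the highest summer library. The log2 fold change was 0.74 (SE 0.16, adjusted p = 0.00277), or 1.67-fold, and it was 0.82 without that winter library. TRIM54 was higher in 6 of 6 bears, by 0.05 on the log2 scale in bear 1509, 0.66 to 0.83 in 4 bears and 1.25 in bear 1317. The last started lowest, and its summer level is part of that difference.

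TRIM55 fell. Its lowest, median and highest levels were 27.9, 35.9 and 46.6 CPM in summer and 17.3, 25.4 and 27.5 CPM in winter, again without overlap. The log2 fold change was −0.59 (SE 0.15, adjusted p = 0.00687), which left 0.665 of the summer level, and TRIM55 was lower in 6 of 6 bears. The fall was smallest in bear 1509, at −0.02, and largest in bear 1317, at −1.06. Bear 1509 thus had the smallest change of both TRIM54 and TRIM55, and bear 1317 the largest of both. The winter library of bear 1509 was the one far out on the second principal component. Without that library the log2 fold change of TRIM55 was −0.63.

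TRIM63, the atrophy marker MuRF1, did not pass the test. It stood at 127, 242 and 351 CPM in summer and at 189, 218 and 245 CPM in winter, as lowest, median and highest, so the winter values lay inside the summer range. The log2 fold change was −0.15 (SE 0.20, adjusted p = 0.574), lower in 4 of 6 bears and higher in bears 1305 and 1511. It was −0.30 without bear 1305, −0.08 without bear 1509 and −0.01 without bear 1317, uncalled in each.

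Within libraries, the TRIM54/TRIM55 ratio was higher in winter in 6 of 6 bears, by 1.32 ± 0.74 on the log2 scale (SD, n = 6 bears), a 2.49-fold shift. The TRIM63/TRIM54 ratio was lower in 6 of 6 bears, at −0.81 ± 0.65 (SD, n = 6 bears). Both had an exact p of 0.0312, the smallest the test allows with n = 6 bears, and 0.0729 after adjustment. The TRIM63/TRIM55 ratio was higher in 4 of 6 bears, by 0.50 ± 0.66 (exact p = 0.188, adjusted 0.219, n = 6 bears). The 3 MuRF genes are paralogs, and how reads that fit more than 1 gene were counted is not given in the sources used here.

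**Figure D3:**
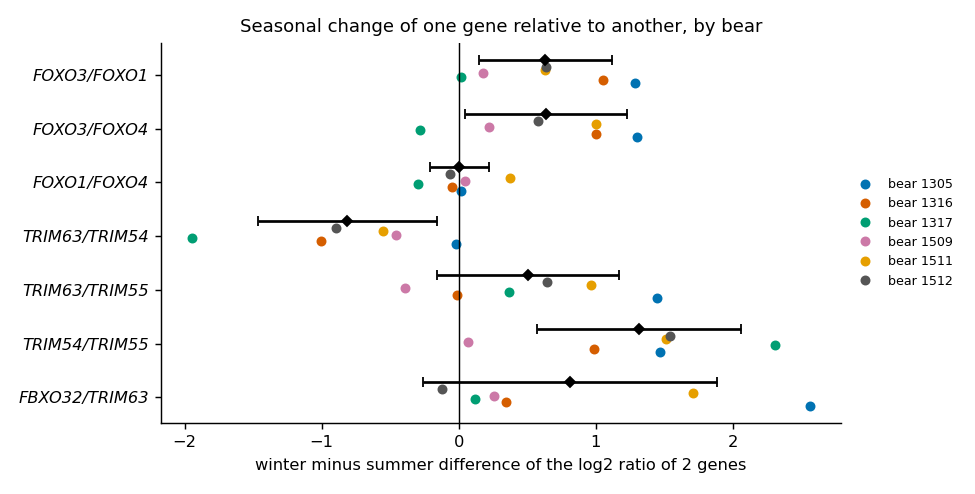
Winter minus summer difference of the log2 ratio of 2 genes in the same library (horizontal axis) for 7 pairs, with 1 colored point per bear and black diamonds for the mean ± SD (n = 6 bears). All 6 points lie above 0 for FOXO3/FOXO1 and TRIM54/TRIM55 and below 0 for TRIM63/TRIM54, while those of FOXO1/FOXO4 straddle 0.

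FBXO32, which encodes the substrate-binding subunit of an SCF ubiquitin ligase, varied more between summer biopsies than almost any other gene. Its summer levels were 61.7 CPM in bear 1305, 131 in bear 1511, 480 in bear 1316, 510 in bear 1512, 861 in bear 1509 and 890 in bear 1317, a 14.4-fold range. In winter the 6 bears lay between 443 and 773 CPM, a 1.75-fold range. The standard deviation was 1.57 on the log2 scale in summer, above that of 99.6% of the 11365 genes that averaged 1 log2 CPM or more, and 0.30 in winter.

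The seasons overlapped for FBXO32. Mean levels were 8.40 ± 1.57 (summer) and 9.14 ± 0.30 (winter) log2 CPM (SD, n = 6 bears). The log2 fold change fitted by edgeR was 0.23 (SE 0.48, adjusted p = 0.726). Its size depended on the method, since the log2 CPM differences of the 6 bears averaged 0.74 and limma voom gave 0.73 (adjusted p = 0.303). FBXO32 was higher in winter in 3 of 6 bears, by 3.36 in bear 1305, 1.81 in bear 1511 and 0.18 in bear 1316. It was lower in the other 3, by 0.16 to 0.58. The edgeR value rested on bear 1305, without which it was −0.04 (adjusted p = 0.948), and blocking by bear (replicate block) gave 0.64 (adjusted p = 0.288), uncalled in each. The FBXO32/TRIM63 ratio was higher in winter in 5 of 6 bears, by 0.81 ± 1.07 (exact p = 0.0938, adjusted 0.131, n = 6 bears).

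TRIM63 had the same order of bears at the low end of summer, 127 CPM in bear 1305 and 175 in bear 1511, below the 208 to 351 CPM of the others. Its standard deviation was 0.55 in summer and 0.14 in winter. After these values had been seen, the spread of each gene was compared between seasons by an exact permutation test (two-sided) of the absolute deviations from the season median. The deviation was larger in summer for TRIM63 (mean 0.45 against 0.11, exact p = 0.00649, adjusted over the 8 genes 0.0519), for FOXO3 (0.29 against 0.15, p = 0.0368 by exact permutation, adjusted 0.147) and for FBXO32 (1.11 against 0.23, p = 0.0714 by exact permutation, adjusted 0.190). None passed after adjustment. The test treats the 12 libraries as independent and does not use that each bear gave a library in both seasons. Without bear 1305 the difference in deviation fell from 0.34 to 0.19 for TRIM63 and from 0.88 to 0.49 for FBXO32, and for FOXO3 it fell from 0.14 to 0.08 without bear 1317 and to 0.09 without bear 1512.

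For MUL1 the spread was larger in winter, a difference that did not pass the same test (exact permutation p = 0.160, adjusted 0.320). Its summer levels lay within 17.0 and 19.0 CPM, a standard deviation of 0.07 that was larger than that of only 0.959% of genes, whereas in winter it ran from 10.2 to 17.7 CPM with a median of 14.6 CPM and a standard deviation of 0.27. MUL1 was lower in winter in 6 of 6 bears, at −0.31 on the log2 scale (SE 0.12, adjusted p = 0.0532) just short of the threshold. It was called in 4 of 15 other fits, namely DESeq2 (adjusted p = 0.0402), limma voom (0.0421), library totals (0.0151) and without bear 1511 (0.0415), and over all of them the adjusted p ran from 0.0151 to 0.155. The lowest winter library was that of bear 1509, and without that bear the log2 fold change was −0.20.

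Of 10 relations between seasonal changes, that of FBXO32 with TRIM63 had the highest r. Over the 6 bears, the winter minus summer differences in log2 CPM had a Pearson r of 0.935 (exact permutation p = 0.00556, adjusted over 10 relations 0.0556) and a Spearman rho of 0.829 (exact p = 0.0583, adjusted 0.292). Without the 2 bears farthest from the median change of FBXO32, 1305 and 1511, r was 0.763. Within seasons, the levels of the 6 bears had an r of 0.950 in summer and 0.677 in winter.

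FOXO3 changes had an r of 0.681 with those of FBXO32 (exact p = 0.156, adjusted 0.389, n = 6 bears) and a rho of 0.829 (exact p = 0.0583, adjusted 0.292), and r was 0.981 without the 2 farthest bears. With TRIM63, r was 0.697 (exact p = 0.107, adjusted 0.361, n = 6 bears), rho 0.543 (exact p = 0.297, adjusted 0.594) and r without the 2 farthest bears 0.858. For FOXO4 and TRIM63, r was −0.698 (exact p = 0.108, adjusted 0.361, n = 6 bears), rho −0.771 (exact p = 0.103, adjusted 0.343) and r without the 2 farthest bears −0.864. The other 6 relations of a FOXO gene with FBXO32, TRIM63 or MUL1 had an r between −0.512 and 0.437, with exact permutation p of 0.315 or more. Without the 2 farthest bears these r lay between −0.945 and 0.943, so the values depended on those bears. No relation passed after adjustment, so none of the FOXO transcripts was shown to follow a ligase transcript across bears.

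**Figure D4:**
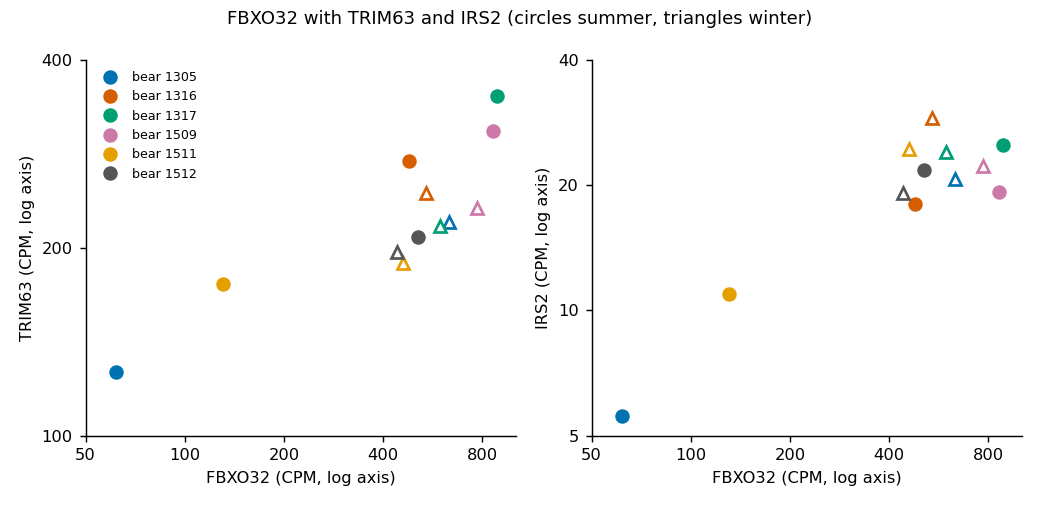
FBXO32 level (horizontal log axis, CPM) against TRIM63 (left) and IRS2 (right, both vertical log axes, CPM) in the 12 libraries, colored by bear, with filled circles for summer and open triangles for winter. The summer circles of bears 1305 and 1511 lie at the lower left of both panels, and the 6 winter triangles stand close together.

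The genes most like each of the 8 were sought among 10337 others with a symbol and an average of 1 log2 CPM or more, by the correlation of deviations from the season mean over the 12 libraries, a description that shares library and bear. For FBXO32 these were LAMA1 (r = 0.921), a laminin chain, and IRS2 (r = 0.913), an insulin receptor substrate that is itself a FOXO target. Both r rest mostly on the summer libraries, where the standard deviation of FBXO32 was 1.57, against 0.30 in winter. IRS2 stood at 5.57 CPM in bear 1305 and 11.0 CPM in bear 1511 in summer and at 18.0 to 29.1 CPM in the other 10 libraries. TRIM63 was nearest to ARID5B (r = 0.932) and SACM1L (r = 0.924), FOXO3 to RFWD3 (r = 0.925) and KDM3B (r = 0.921), and FOXO4 to VDAC3 (r = 0.906) and BRCC3 (r = 0.896). FOXO1 was nearest to FBLN5 (r = 0.901), an elastic fiber protein, and PDGFRA (r = 0.890), a receptor that marks fibroblasts. FBLN5 fell in winter (log2 fold change −0.89, adjusted p = 0.000505), and PDGFRA had a log2 fold change of −0.49 (adjusted p = 0.0772). TRIM55 was nearest to COP1 (r = 0.962), a ubiquitin ligase, and USP38 (r = 0.937), a deubiquitinase, TRIM54 to ANP32A (r = 0.903) and UBE2G2 (r = 0.901), and MUL1 to RXRA (r = 0.952) and PRPF6 (r = 0.951).

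The enzymes and binding proteins that modify FOXO factors split evenly, with 6 of 29 higher and 6 lower in winter (41.4% called, beside 39.5% of all genes) and a median log2 fold change of 0.13. The median over all genes tested was −0.0021. SIRT1, a deacetylase of FOXO proteins, rose by 0.86 (adjusted p = 0.000234) on the log2 scale. CREBBP, an acetyltransferase, rose by 0.72 (adjusted p = 0.00517), and YWHAG, a 14-3-3 protein of the family that holds phosphorylated FOXO in the cytoplasm, rose by 0.70 (adjusted p = 0.000476). KAT2B, another acetyltransferase, fell by 0.88 (adjusted p = 0.00101) and SETD7, a lysine methyltransferase, fell by 0.76 (adjusted p = 0.000225). PRMT6, an arginine methyltransferase with 13 to 61 reads per library, fell by 0.72 (adjusted p = 0.0385), a call lost in 9 of 15 other fits, among them DESeq2 with a replicate block by bear (adjusted p = 0.0799).

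Of the FOXO target genes known from muscle, the ligases aside, 9 of 29 were higher and 4 lower. That was 44.8% called, beside 39.5% of all genes, with a median log2 fold change of 0.24. PDK4, the kinase that shuts off pyruvate dehydrogenase, rose most. Its lowest, median and highest levels were 18.9, 90.1 and 296 CPM in summer and 504, 691 and 750 CPM in winter, or 2.38 in log2 fold change (SE 0.57, adjusted p = 0.00454). CITED2, a transcriptional coregulator, rose by 1.31 (adjusted p = 0.0124) in 5 of 6 bears, and its adjusted p was 0.0586 without bear 1317. GADD45A, a growth arrest gene, rose by 1.08 (adjusted p = 0.00395). MAP1LC3A, which encodes an autophagosome protein, fell by 1.71 (adjusted p = 3.92e-05), KLF15, a glucocorticoid-responsive factor, fell by 1.34 (adjusted p = 0.00394), and EIF4EBP1, an inhibitor of translation, fell by 0.77 (adjusted p = 0.023). The call of EIF4EBP1 was lost without bear 1305, 1316, 1509 or 1512 (adjusted p from 0.052 to 0.0845).

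Other ubiquitin ligases of muscle gave 8 of 23 higher and 6 lower in winter (60.9% called, beside 39.5% of all genes). Their median log2 fold change was 0.04. With library totals, 5 were higher. KLHL41, a muscle adaptor of cullin-3 ligases that binds the thin filament, rose by 1.49 (adjusted p = 4.22e-05). TRAF6, at 72 to 189 reads per library, rose by 0.83 (adjusted p = 0.000746), and NEDD4L rose by 0.75 (adjusted p = 0.00102). WWP1 fell by 0.85 (adjusted p = 0.000758), the chaperone-linked ligase STUB1 fell by 0.60 (adjusted p = 0.00862), and ASB2 fell by 0.59 (adjusted p = 0.00701). Each of these 6 moved in the same direction in 6 of 6 bears, beside 37.4% of all genes, but they were picked for their change in these same bears. The smallest change in a bear was −0.01 for STUB1, −0.02 for ASB2 and −0.05 for WWP1.

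Among the SCF core subunits and ubiquitin-conjugating enzymes that work with the ligases, 4 of 10 were higher and 1 lower (50% called, beside 39.5% of all genes), with a median log2 fold change of 0.20. CUL1, the scaffold that FBXO32 needs, rose by 0.88 (adjusted p = 0.000429). UBE2E1 rose by 0.84 (adjusted p = 9.63e-05) and UBE2D1 by 0.54 (adjusted p = 0.00255), while UBE2L3 fell by 0.35 (adjusted p = 0.0224), a call lost without bear 1305, 1316 or 1512 (adjusted p from 0.0629 to 0.0758).

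Of the substrates and binding partners of the ligases, 2 of 20 were higher and 6 lower (40% called, beside 39.5% of all genes), with a median log2 fold change of 0.05. EIF3F, an initiation factor subunit that FBXO32 targets, rose by 0.76 (adjusted p = 0.000594), and TTN, the giant sarcomere protein titin that binds the MuRF proteins, rose by 0.65 (adjusted p = 0.0036). TCAP, the titin cap, fell by 1.58 (adjusted p = 8.78e-05), MYBPC2, a myosin-binding protein of fast fibers, fell by 1.24 (adjusted p = 7.18e-05), and VIM, an intermediate filament gene, fell by 1.00 (adjusted p = 0.01). VIM is abundant in fibroblasts and endothelium, whose marker levels were lower in winter, and their part in its change was not tested. Beside MUL1, and picked after their values were known, DNM1L of mitochondrial fission fell by 0.92 (adjusted p = 0.00101) and MFN2 of fusion fell by 0.36 (adjusted p = 0.0317, up to 0.129 in other fits). The other mitofusin, MFN1, was at 0.23 (adjusted p = 0.0896), higher in 5 of 6 bears.

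Upstream regulators of ligase transcription gave 6 of 20 higher and 3 lower (45.0% called, beside 39.5% of all genes). Their median log2 fold change was −0.09. FKBP5, a glucocorticoid receptor cochaperone and target, rose by 0.94 (adjusted p = 0.011) in 5 of 6 bears. RELA, a subunit of NF-κB, rose by 0.69 (adjusted p = 0.0021) and ATF4, a stress factor, by 0.59 (adjusted p = 0.00476). KLF15, listed here too, fell as given above. TWIST1, at 3 to 29 reads per library, fell by 1.15 (adjusted p = 0.0362), a call lost without bear 1305, 1316, 1317 or 1512 (adjusted p from 0.0983 to 0.111). SMAD3 was at −0.40 (adjusted p = 0.048), a call lost in 8 other fits. Among these was edgeR with the replicate block by bear (adjusted p = 0.0538), whereas DESeq2 with that block kept the call.

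**Figure D5:**
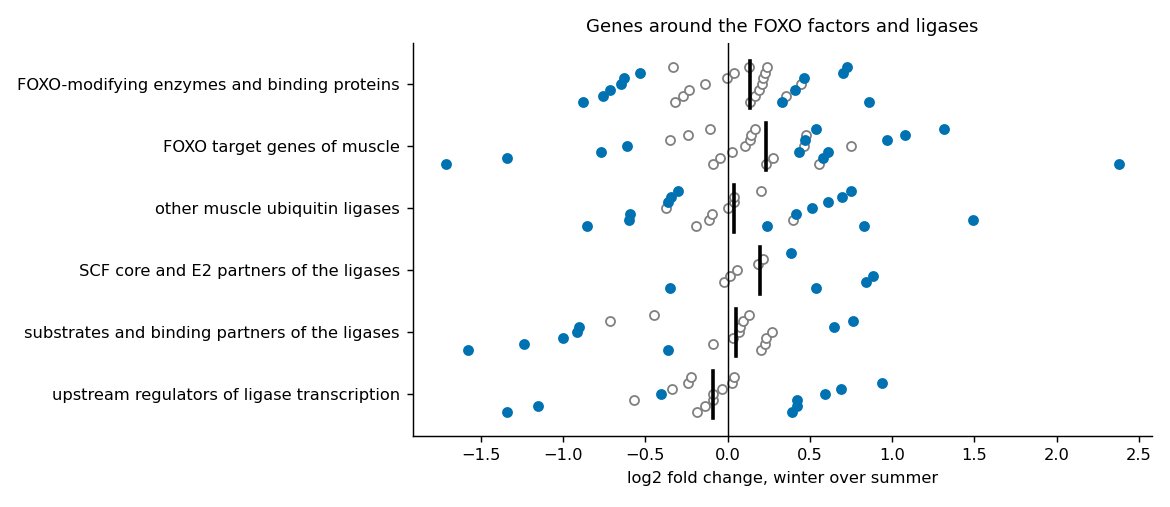
Log2 fold change of winter over summer (horizontal axis) for the tested genes of 6 lists around the FOXO factors and ligases, with filled points for genes called at an adjusted p below 0.05, open points for the others and a black bar at the median of each list. Called genes lie on both sides of 0 in every list, and the rightmost point, at 2.38, is PDK4.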

How the data were processed

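The authors prepared stranded poly-A libraries, read single ends of 50 bases, ran TopHat 2.1.1 against the assembly ASM358476v1, dropped alignments with more than 3 mismatches and counted reads per gene and strand with featureCounts 1.6.2. The deposited values are these raw counts, before the DESeq2 normalization that the study applied for its own tests. Following the study's filter, genes under 30 reads in the sum of 12 libraries were dropped. The rest entered edgeR 4.0.16 (R 4.3.3) in a model of season alone. Alternatives were the bear as a replicate block, DESeq2 1.42.0, limma 3.58.1 (voom), RLE scaling, library totals, no filter, filterByExpr, each bear left out and the winter library of bear 1509 left out.

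Libraries of a bear came from the same animal, by the study's methods. Their deviations from the season mean correlated at 0.0902 to 0.344, and those of different bears at a median of −0.0634 and up to 0.142, so the ranges overlap. No library copied another of its season, since the lowest chi-square per gene was 39.0. The fits were tested on simulated counts in which 200 of 17290 genes had known changes. The edgeR fit recovered 62% of the changed genes, and 49% of those changed 2-fold, and called 10 unchanged genes. Of the 2-fold changes, edgeR with the replicate block recovered 36%, limma voom 47% and DESeq2 64%. The simulated counts held no effect shared by the libraries of a bear, so they cannot show what the block gains or loses in paired data. DESeq2 called 37 unchanged genes. In the real counts 39.5% of the genes tested were called, a far larger share than was changed in the simulation. The adjustment is less strict when more genes change, so these recovery rates do not carry over to the real counts. The fitted changes of the 8 genes were all under 2-fold, and a gene left uncalled was not shown to be unchanged.

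The 8 genes and the lists were chosen with earlier results of these data known, and the test of spread was added after the counts had been seen. Named genes were the 8, up to 3 called genes per direction and list with the largest change, and the 2 most alike per gene. DNM1L, MFN1, MFN2, FOXO6 and, in the closing section, ATG14, CCNG2, PIK3C3, TXNIP and MAP1LC3B lie outside this rule and were named after their values had been seen. Of the listed genes, YWHAZ was matched by gene ID through RefSeq and MARCHF5 by an older symbol, while CTSL and MYL1 were not matched.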

Additional observations from a re-analysis of the deposited data

Results flagged for a closer look

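The summer level of TRIM54 in bear 1317, 7.53 log2 CPM, lay far below the other 5 summer libraries at 8.07 to 8.34 log2 CPM, with a gap of 0.661 of the range, above Dixon's 95% critical value. In all, 16 groups of 6 libraries were examined, of which chance marks about 1 in 20. Bear 1317 also had the largest rise of TRIM54, of which that summer level is part. Without that bear the log2 fold change was 0.66 (adjusted p = 0.0059 in edgeR).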

How the results depend on the processing

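FOXO3, TRIM54 and TRIM55 kept their direction and their call in 15 of 15 other fits, with log2 fold changes of 0.64 to 0.88, 0.66 to 0.87 and −0.69 to −0.48. Under the replicate block by bear, 2 of the 8 genes were higher and 1 lower in edgeR and in DESeq2, and no call among the 8 changed. The number lower was 2, with MUL1 added, in DESeq2 without the block, in limma voom and with library totals, and 1 to 2 with a library or bear left out. With library totals 5 other ligases were higher. With a library or bear left out, 5 to 8 other ligases were higher, 0 to 1 SCF or conjugating gene and 1 to 2 upstream regulators were lower, and the log2 fold change of FBXO32 ran from −0.0392 to 0.48. The FOXO1/FOXO4 difference ran from −0.0687 to 0.0658, and the summer minus winter deviation from −0.0158 to 0.0847 for FOXO1 and from −0.156 to 0.0553 for TRIM54. The r of FOXO1 ran from −0.408 to 0.562 with FBXO32, from −0.431 to 0.0925 with TRIM63 and from −0.476 to 0.667 with MUL1, and with library totals it was 0.122 with FBXO32 and 0.0708 with TRIM63. The cause of these shifts was not tested. With 5 bears the exact sign-flip test cannot reach 0.05. Depth limits TWIST1, PRMT6, FOXO6 and KLF15, whose lowest libraries held 3, 13, 33 and 36 reads.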

Other observations

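The FOXO target genes outside the ligases differed in how they followed FBXO32 from library to library, in a comparison made after the counts had been seen. Deviations from the season mean over the 12 libraries correlated with those of FBXO32 above 0.5 for 5 of 29 targets (17.2%), beside 5.35% of 10337 genes, and the median r was 0.12 for the targets and −0.02 for all. The 5 were IRS2 (0.913), ATG14 (0.733), which acts at the start of autophagosome formation, CCNG2 (0.710), a cyclin of cell cycle exit, PIK3C3 (0.595), the lipid kinase that ATG14 binds, and TXNIP (0.543), a brake on glucose uptake. At the other end lay GADD45A (−0.470) and MAP1LC3B (−0.458). The standard deviation of FBXO32 was 1.57 in summer and 0.30 in winter, so these r rest mostly on the summer libraries. PDK4 had an r of 0.473 with FBXO32. It stood at 18.9 CPM in bear 1512 and 22.1 CPM in bear 1511 in summer, so its lowest bears were only in part those of FBXO32, and at 78.8 CPM in bear 1305.

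FKBP5 and KLF15, which respond to glucocorticoids, were read by bear after their values had been seen. FKBP5 was at 109 CPM in summer in bear 1305, which had the lowest summer FBXO32, but at 93.3 CPM in bear 1317, which had the highest, and at 38.4 CPM in bear 1511, the second lowest, so its order did not follow that of FBXO32. In winter it was at 98.7 to 162 CPM in the 6 bears. KLF15 was at 15.0 CPM in summer in bear 1317, the bear with the highest summer FBXO32 and TRIM63, and at 5.36 to 8.42 CPM in the other 5 bears. Bear 1509, at 861 CPM of FBXO32 in summer, had 6.63 CPM of KLF15, and bear 1511, at 131 CPM, had 8.42 CPM. Over the 12 libraries, deviations of KLF15 from the season mean had an r of 0.278 with FBXO32 and 0.474 with TRIM63. Whether glucocorticoids had a part in these levels was not tested.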
